A study of Mus musculus with 32 samples.

Results

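The VEGF and angiopoietin ligands and their receptors were examined as a family of 10 genes among the 22337 genes measured. They were chosen by symbol: the ligands Vegfa, Vegfb, Vegfc and Pgf, the VEGF receptors Flt1 and Kdr, the co-receptor Nrp1, the ligands Angpt1 and Angpt2, and their receptor Tek. All 10 were found, each with 1 row in both tables of the series.

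RNA-seq was performed on 32 samples from male mice 6 months of age on a C57BL/6J background. WT mice were littermates without the transgenes, and 5xFAD mice carried the transgenes of that line, which the Thy1 promoter drives in neurons. Light-treated 5xFAD mice (5xFAD+light) received near-infrared light through the skull for 10 min, 3 times per week for 4 weeks, while anesthetized with isoflurane and with the scalp shaved. Control mice had the same anesthesia and shaving, with indoor lighting, per the study’s methods, which do not say whether the WT mice were handled that way. Each condition had 4 hippocampal samples, while the meninges and the meningeal lymphatic endothelial cells (mLECs) each had 4 WT, 3 untreated and 3 light-treated samples. The mLECs were sorted from the meninges as live CD45-negative, CD31-positive, podoplanin-positive cells, with 1 mouse per sample.

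VEGF-A, VEGF-B and PlGF, the product of Pgf, bind the receptor tyrosine kinase VEGFR1 (Flt1), whereas VEGF-A also binds VEGFR2 (Kdr), the main signaling receptor of blood endothelium. VEGF-C acts through VEGFR3 (Flt4) and is the growth factor that maintains lymphatic vessels, meningeal ones included. Angiopoietin-1 activates the receptor Tie2 (Tek) and stabilizes vessels, while angiopoietin-2, released by endothelial cells, can block or activate the same receptor. In the brain these factors set vessel growth and permeability.

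Levels are given as FPKM, the fragments scaled to transcript length and to the library's mapped fragments, which the authors deposited beside expected counts. Total expected counts ranged from 6601143 to 24207326 per sample, and the sorted mLECs had between 5998 and 9020 genes above 0 against 16371 or more in the tissues. Differences were tested with edgeR's quasi-likelihood test, and a gene was called at an adjusted p below 0.05 and at least a 2-fold change. The spread between samples of a group, edgeR's biological coefficient of variation, was 0.198 in hippocampus, 0.35 in meninges and 1.89 in mLECs. In a tissue, a smaller number of cells that express a gene and less RNA in each cell cannot be told apart. Where light-treated 5xFAD samples are set against WT, genotype and light change together and cannot be told apart. No hippocampal sample had any member at 0, but the untreated 5xFAD sample 3 stood apart with Nrp1 at 10.09 FPKM, when the other 11 hippocampal samples were between 22.88 and 34.99. The meningeal samples also held RNA of other structures, with the summed FPKM of 7 choroid plexus markers between 15800 and 49670. Hippocampal samples held less of it and unevenly, at 36.83 to 2825 in WT, 208.4 to 3220 in untreated and 64.53 to 246 in light-treated 5xFAD. Its part in the levels of the 10 genes was not tested.

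**Figure D1:**
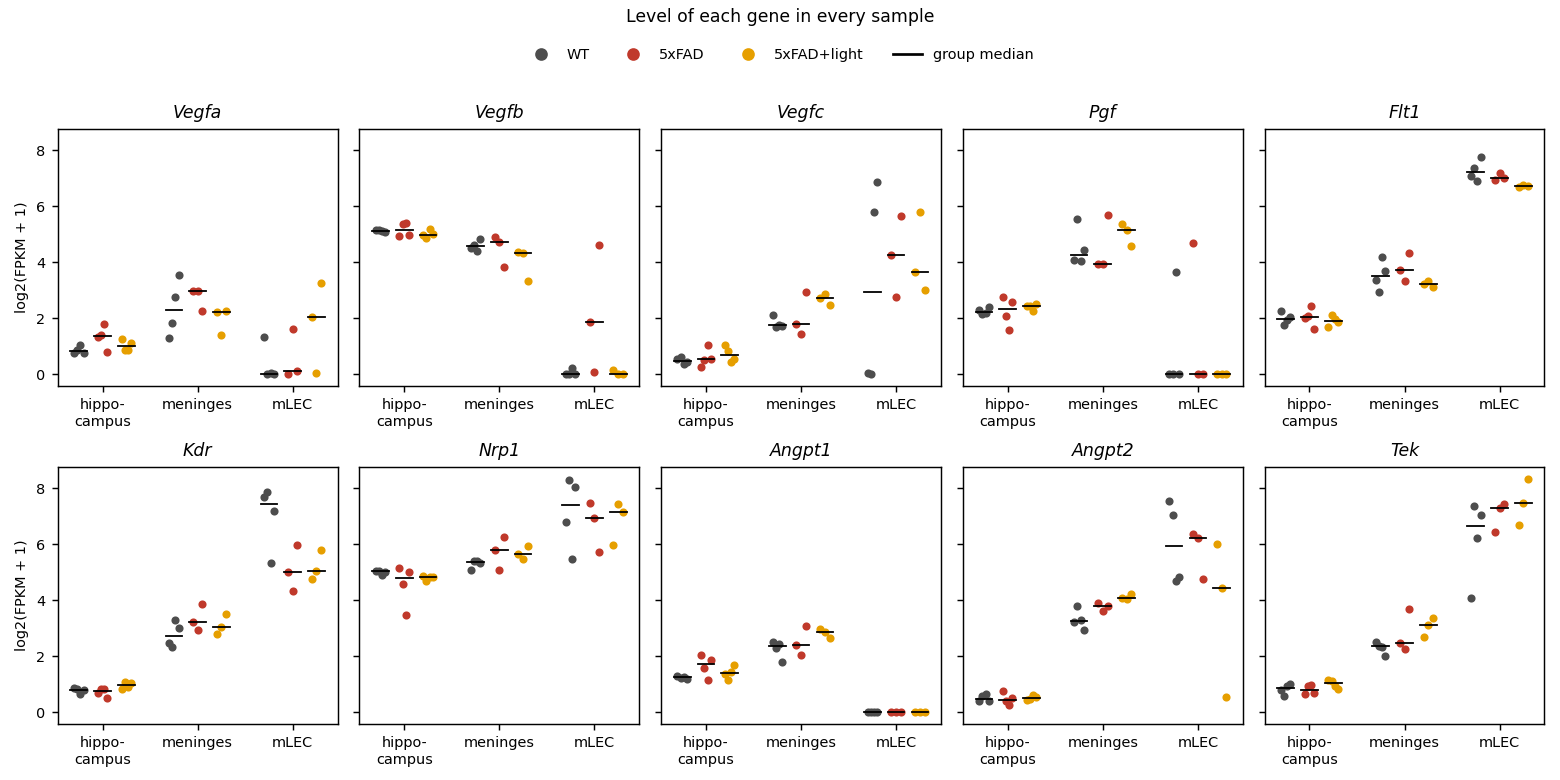
Level of each of the 10 genes in every sample, as log2(FPKM + 1), with hippocampus, meninges and mLECs along the x axis and condition by color. Each point is 1 sample and each bar a group median. Flt1, Kdr, Nrp1, Tek, Angpt2 and Vegfc have their highest medians in the mLEC libraries, where Angpt1 is at 0 in all 10. The mLECs were normalized in a separate table.

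The order of the genes was described within each tissue over all its samples. In hippocampus, Vegfb was the most abundant, with a median of 33.13 FPKM and a range from 28.46 to 41.58, and Nrp1 followed with a median of 28.77 and a range from 10.09 to 34.99. These neighbors in the order overlapped, and so did every later pair except Nrp1 and Pgf. Pgf had a median of 4.075 FPKM (1.98 to 5.78), Flt1 2.95 (2.03 to 4.35), Angpt1 1.515 (1.21 to 3.11) and Vegfa 0.94 (0.67 to 2.49). Tek, Kdr, Vegfc and Angpt2 were lowest, with medians of 0.9, 0.78, 0.44 and 0.395 FPKM, and the last 3 did not reach the filter of 1 FPKM in 3 samples that was set for testing.

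In meninges the ligand Pgf moved up the order and Angpt2 left the last place. Nrp1 was again high, with a median of 42.7 FPKM and a range from 32.69 to 76.71. Pgf had a median of 21.67 (14.48 to 50.41), Vegfb 21.18 (9.03 to 29.26) and Angpt2 12.8 (6.71 to 17.84). The receptors Flt1, Kdr and Tek had medians of 9.155, 7.14 and 4.595 FPKM, and Angpt1, Vegfa and Vegfc followed with 4.57, 3.735 and 2.905. Each of these genes overlapped the next one in its range.

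To compare the tissues in untreated WT mice, the 4 WT meninges were set against the 4 WT hippocampi, which share a table. Of the 10 genes, 8 were called and all 8 were higher in meninges, on a background of 50.0% of 14144 genes called and 28.3% called higher. DESeq2 and limma each called 8 as well. Vegfa, Vegfc, Kdr, Angpt2 and Tek passed the filter, at least 1 FPKM in at least 3 samples, only through the meninges. The direction of their difference was therefore largely set by the filter. The median log2 fold change of the 10 genes was 2.21, and that of all genes tested was 0.07.

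Angpt2 (chromosome 8, positions 18690263 to 18741562 of GRCm38, minus strand) had the largest difference of the 10. It lay at 0.32, 0.48, 0.58 and 0.3 FPKM in WT hippocampus and at 8.28, 12.88, 8.7 and 6.71 FPKM in WT meninges. The groups were far apart, with a log2 fold change of 4.40 ± 0.30 (SE) and an adjusted p of 6.41e-07 by edgeR. The gene lies within Mcph1 on the opposite strand, but no exon bases are shared. Angpt1 (chromosome 15, 42424723 to 42676977, minus strand) rose less, from 1.47, 1.35, 1.38 and 1.27 FPKM in hippocampus to 4.7, 3.92, 4.44 and 2.5 FPKM in meninges. Its log2 fold change was 1.45 ± 0.22 (SE) with an adjusted p of 1.56e-04, and 737 of its exon bases overlap the antisense gene Gm17473, whose reads cannot be separated in these libraries without strand. Hence Angpt1 exceeded Angpt2 in all 12 hippocampal samples, whereas Angpt2 exceeded Angpt1 in all 10 meningeal ones. The log2 ratio of Angpt2 to Angpt1 FPKM was between -2.66 and -1.25 in hippocampus and between 0.77 and 1.87 in meninges.

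All of the endothelial receptors except the co-receptor were higher in meninges. Kdr (chromosome 5, 75932827 to 75978458, minus strand) was at 0.81, 0.76, 0.57 and 0.71 FPKM in WT hippocampus and at 4.56, 3.96, 8.84 and 6.94 FPKM in WT meninges. The groups did not overlap, and the log2 fold change was 3.02 ± 0.26 (SE) with an adjusted p of 3.15e-06. Tek (chromosome 4, 94739289 to 94874976, plus strand), the angiopoietin receptor, was at 0.73, 0.48, 0.9 and 1.0 FPKM against 4.63, 4.14, 4.04 and 3.0 FPKM. Its difference was 2.31 ± 0.26 (SE) on the log2 scale with an adjusted p of 1.99e-05. Flt1 (chromosome 5, 147561604 to 147726011, minus strand), which encodes both a membrane-bound and a soluble decoy receptor that gene-level values do not separate, was at 3.73, 2.35, 2.79 and 3.08 FPKM against 9.3, 6.66, 17.15 and 11.75 FPKM. Its log2 fold change was 1.83 ± 0.27 (SE), with an adjusted p of 1.18e-04. The WT samples of the tissues therefore overlapped for none of these 3 receptors.

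Nrp1 (chromosome 8, 128358604 to 128503363, plus strand), a co-receptor for VEGF and semaphorins that neurons also express, did not pass the test. Its values were 32.36, 31.91, 29.17 and 31.41 FPKM in WT hippocampus and 32.97, 41.77, 41.08 and 38.96 FPKM in WT meninges. The meningeal samples were all higher, but only slightly, with a log2 fold change of 0.26 ± 0.13 (SE) and an adjusted p of 0.109.

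Among the VEGF ligands, Vegfc (chromosome 8, 54077606 to 54187096, plus strand) was at 0.44, 0.51, 0.27 and 0.35 FPKM in WT hippocampus and at 3.37, 2.24, 2.36 and 2.32 FPKM in WT meninges. The log2 fold change was 2.74 ± 0.31 (SE) with an adjusted p of 1.85e-05. Pgf (chromosome 12, 85166635 to 85177790, minus strand), the placental growth factor gene, was at 3.89, 3.47, 3.5 and 4.26 FPKM against 16.06, 46.17, 15.61 and 20.55 FPKM, a log2 fold change of 2.67 ± 0.36 (SE) with an adjusted p of 6.59e-05. Both ligands were higher in each WT meninges than in any WT hippocampus. Vegfa (chromosome 17, 46016993 to 46032369, minus strand), the hypoxia-regulated main ligand of Kdr, was at 0.67, 0.83, 1.05 and 0.69 FPKM against 1.42, 2.58, 5.75 and 10.64 FPKM. The WT meninges differed from each other more for Vegfa than for the other ligands, and the log2 fold change was 2.11 ± 0.42 (SE) with an adjusted p of 1.00e-03. Vegfb (chromosome 19, 6982473 to 6987651, minus strand), a ligand of Flt1, went the other way, at 34.87, 34.37, 33.47 and 32.8 FPKM in hippocampus and 21.97, 23.64, 20.4 and 27.2 FPKM in meninges. It passed the adjusted threshold (log2 fold change -0.59 ± 0.15 (SE), adjusted p 0.00404) but not the 2-fold one.

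**Figure D2:**
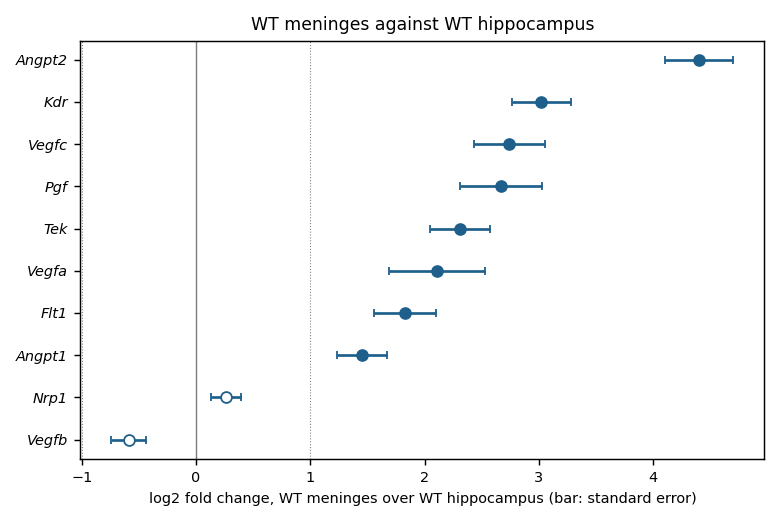
Log2 fold change of each gene in WT meninges over WT hippocampus (x axis, 4 samples each), with the standard error as a bar. Filled points were called, dotted lines mark 2-fold, and the values run from -0.59 for Vegfb to 4.40 for Angpt2.

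Over all conditions, every one of the 10 meningeal samples was above every one of the 12 hippocampal samples for 6 of the 10 genes, namely Vegfc, Pgf, Flt1, Kdr, Angpt2 and Tek. Of all 15132 genes examined in these 22 samples, 20.0% did the same. Vegfc, Kdr and Angpt2 entered this count only through the meninges, since they did not reach the filter in hippocampus. Markers of the vessel wall differed between the tissues as well. Of 10 blood endothelial markers 8 were called higher in WT meninges, when 28.3% of all genes were. Mfsd2a, on the same list, went the other way, at 8.66 to 21.82 FPKM over the 12 hippocampal and 0.46 to 6.91 FPKM over the 10 meningeal samples. The 10 markers summed to 372.4 to 573.8 FPKM against 131.8 to 144.4 in WT hippocampus, and their median log2 fold change was 2.06. How far differences in the amount or type of endothelium set those of the receptors was not tested.

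Sequences around the transcription starts are shown for the receptors Kdr, Flt1 and Tek and for Vegfa, which were all higher in WT meninges. They are RefSeq promoters of GRCm38.p6, from 250 bases before to 50 after the start, read along the gene. Of the 10 genes, 8 had an entry, with 10 promoters in all, and Angpt1 and Angpt2 are named only. Capitals mark ACGTG or GCGTG on either strand, the core letters of the element through which hypoxia-inducible factors act.
Kdr promoter, chr5:75978406-75978705, minus strand: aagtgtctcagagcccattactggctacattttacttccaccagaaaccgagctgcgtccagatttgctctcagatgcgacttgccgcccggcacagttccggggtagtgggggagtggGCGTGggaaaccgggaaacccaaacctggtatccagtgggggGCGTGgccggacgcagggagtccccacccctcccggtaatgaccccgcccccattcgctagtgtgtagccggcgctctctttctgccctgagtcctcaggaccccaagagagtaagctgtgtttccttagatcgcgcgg
Flt1 promoter, chr5:147725962-147726261, minus strand: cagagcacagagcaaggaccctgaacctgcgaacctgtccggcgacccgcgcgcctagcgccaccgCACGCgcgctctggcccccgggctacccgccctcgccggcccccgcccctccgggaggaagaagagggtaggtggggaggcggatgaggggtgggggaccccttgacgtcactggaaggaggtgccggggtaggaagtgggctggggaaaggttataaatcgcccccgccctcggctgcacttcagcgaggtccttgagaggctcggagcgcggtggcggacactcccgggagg
Tek promoter, chr4:94739039-94739338, plus strand: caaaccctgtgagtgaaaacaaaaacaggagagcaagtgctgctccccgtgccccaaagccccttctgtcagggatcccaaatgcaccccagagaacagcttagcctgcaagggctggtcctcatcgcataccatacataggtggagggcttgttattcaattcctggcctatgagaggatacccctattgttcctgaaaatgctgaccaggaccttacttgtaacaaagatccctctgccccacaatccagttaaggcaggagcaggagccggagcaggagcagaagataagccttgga
Vegfa promoter, chr17:46025114-46025413, minus strand: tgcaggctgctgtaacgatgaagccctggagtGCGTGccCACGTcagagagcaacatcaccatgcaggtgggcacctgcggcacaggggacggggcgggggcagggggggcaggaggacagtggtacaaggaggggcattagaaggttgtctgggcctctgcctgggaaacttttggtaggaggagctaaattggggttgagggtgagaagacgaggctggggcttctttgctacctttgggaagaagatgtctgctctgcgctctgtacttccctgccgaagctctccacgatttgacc
Kdr held GCGTG at positions 120 and 162, Flt1 held it on the opposite strand at 67, and Tek held neither motif. The Vegfa entry shown, a start inside the gene, held GCGTG at 33 and ACGTG on the opposite strand at 40 with no shared base, and the entry at the first start of Vegfa held neither. Of all 32851 promoters of this length, 19.6% held ACGTG and 32.4% held GCGTG on either strand. The Tek promoter had 3 CpG dinucleotides and the Flt1 promoter 29, against a median of 7 over all promoters, and GC contents were 52.0% and 70.7% against a median of 52.7%.

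To ask whether 5xFAD mice differed from WT mice in hippocampus, 7 of the 10 genes could be tested, since Vegfc, Kdr and Angpt2 were below the filter. None of the 7 was called by edgeR, DESeq2 or limma, on a background of 4.28% of 12981 genes called. By edgeR, 1 of the 7 had an unadjusted p below 0.05, a share below the 24.0% over all genes. This gene was Angpt1, at 3.11, 1.96, 1.21 and 2.59 FPKM in untreated 5xFAD against 1.47, 1.35, 1.38 and 1.27 FPKM in WT hippocampus. Of the 4 untreated 5xFAD samples 3 were above all WT samples and sample 3, the library that stood apart, was below them. The log2 fold change was 0.72 ± 0.26 (SE), with an adjusted p of 0.116 by edgeR, and without that sample it was 0.91 with an adjusted p of 0.0191, which is still under 2-fold. Without untreated 5xFAD sample 1, which had the highest value, it was 0.49 with an adjusted p of 0.284, and by limma on log2(FPKM + 1) 0.41 with an adjusted p of 0.186. Vegfa was at 1.5, 1.61, 2.49 and 0.74 FPKM in untreated 5xFAD, and its log2 fold change of 0.70 ± 0.36 (SE) had an adjusted p of 0.264. The remaining 5 genes had log2 fold changes between -0.32 and 0.09.

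For light-treated against untreated 5xFAD hippocampus, none of the 7 genes was called by edgeR, DESeq2 or limma, where 0.27% of all genes were called by edgeR, and none had an unadjusted p below 0.05. Log2 fold changes ran from -0.40 ± 0.26 (SE) for Angpt1 to 0.43 ± 0.27 (SE) for Tek. Kdr, which was below the filter, had an unadjusted p below 0.05 by edgeR when the filter was left off, and was not called. Angpt1 had one without untreated 5xFAD sample 3. Shares over all genes in these 2 refits were not counted. Light-treated 5xFAD against WT hippocampus likewise gave no call by the 3 tools (2.36% of all genes by edgeR) and no unadjusted p below 0.05. Here 1 of the 7 genes had groups that did not overlap, when 14.9% of all genes had such groups: Nrp1 was at 28.36, 24.69, 27.32 and 27.53 FPKM with light and at 29.17 or more in WT, a log2 fold change of -0.20 ± 0.26 (SE). Angpt1 in the light-treated samples was at 1.56, 1.23, 1.73 and 2.22 FPKM, and this range overlapped both other groups.

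The balance of the VEGF receptors in hippocampus was described by the log2 ratio of Kdr to Flt1 FPKM. It was between -2.29 and -1.63 in WT, between -2.48 and -2.03 in untreated 5xFAD and between -1.71 and -1.34 in light-treated 5xFAD samples, so that all 4 light-treated samples were above all 4 untreated 5xFAD samples. The mean difference was 0.74, larger than the larger of the 2 groups' SDs, 0.19. Kdr rests on 46 to 122 expected counts per sample in these groups, and the ratio was not tested.

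In meninges all 10 genes could be tested. For untreated 5xFAD against WT none of the 10 was called by edgeR, DESeq2 or limma, and 0.0% of the 14318 genes were called by edgeR. By edgeR, 1 of the 10 had an unadjusted p below 0.05, when 4.01% of all genes did. This was Tek, at 4.56, 3.78 and 11.9 FPKM in untreated 5xFAD and 4.63, 4.14, 4.04 and 3.0 FPKM in WT. This difference rested on 1 library: the log2 fold change was 0.79 ± 0.36 (SE, adjusted p of 0.987 by edgeR) and 0.08 without untreated 5xFAD sample 4. That library had the highest Tek, Flt1, Kdr, Nrp1, Pgf, Vegfc and Angpt1 of all 10 meningeal samples. It also had the highest sum of the blood endothelial markers, 926.2 FPKM against 372.4 to 627.2 in the other 9, and of the fibroblast markers, 2364 FPKM against 1001 to 2175, whose part in its values was not tested. The log2 ratio of Kdr to Flt1 was between -0.53 and -0.46 in the 3 untreated 5xFAD and between -1.03 and -0.75 in the 4 WT meninges, a mean difference of 0.39. With light it was between -0.48 and 0.45, which overlapped the untreated 5xFAD samples. In mLECs the ratio went the other way and the groups overlapped, from -2.94 to -1.03 in untreated 5xFAD and from -1.58 to 0.6 in WT, a mean difference of -1.72.

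For light-treated against untreated 5xFAD meninges none of the 10 genes was called by edgeR, DESeq2 or limma (0.014% of all genes by edgeR). In the main edgeR fit none had an unadjusted p below 0.05. This depended on 1 library: without untreated 5xFAD sample 4, 5 of the 10 had one, namely Vegfb, Vegfc, Pgf, Angpt1 and Tek. The share over all genes in that refit was not counted. Flt1 had one by DESeq2, and by edgeR with other scaling, with the replicate block or with only these groups. Angpt2 was at 15.71, 15.68 and 17.84 FPKM with light and at 13.9, 11.34 and 12.72 FPKM without. It was 1 gene of 10 whose groups did not overlap, where 20.8% of all genes did not, and its log2 fold change was 0.38 ± 0.26 (SE) with an adjusted p of 0.533. Flt1 was at 8.3, 9.01 and 7.58 FPKM with light against 12.12, 9.01 and 19.0 FPKM, a log2 fold change of -0.70 ± 0.33 (SE) with an adjusted p of 0.397 by edgeR.

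The same light-treated meninges were then compared with the WT meninges, from which they differ in both genotype and light. None of the 10 genes was called by edgeR, DESeq2 or limma, and 0.014% of all genes were called by edgeR. However, 4 of the 10 had an unadjusted p below 0.05, against 16.4% of all genes in either direction. All 4 were higher in light-treated 5xFAD than in WT. They are not 4 separate observations, since 3 of them varied together over the 10 meningeal samples. After subtracting group means, log2(FPKM + 1) of Vegfc correlated with Angpt1 at r = 0.85 and with Tek at 0.82, and Angpt1 with Tek at 0.74. Angpt2 had r of -0.03 with Vegfc, 0.29 with Angpt1 and 0.26 with Tek. Groups did not overlap for 6 of the 10, against 12.3% of all genes. Against untreated 5xFAD, the log2 fold changes of the 4 were 0.52 for Vegfc, 0.30 for Angpt1, 0.38 for Angpt2 and 0.13 for Tek. Under the alternatives these ran from 0.18 to 1.45 for Vegfc, 0.06 to 0.74 for Angpt1, 0.27 to 0.47 for Angpt2 and -0.16 to 0.84 for Tek. The count of 4 rested on single libraries: leaving out 1 sample at a time gave between 1 and 4 such genes, with 1 when WT sample 4 or light-treated sample 4 was left out and 2 without WT sample 2, WT sample 3 or light-treated sample 2. Without light-treated sample 1 there were 3, and Vegfc and Angpt1 were not among them, whereas Angpt2 was among them each time. The median log2 fold change of the 10 genes was 0.41, and that of all genes was 0.01.

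Angpt2 was at 8.28, 12.88, 8.7 and 6.71 FPKM in WT and at 15.71, 15.68 and 17.84 FPKM in light-treated meninges, or 9.14 ± 2.64 (SD, n = 4) against 16.4 ± 1.24 (SD, n = 3). Untreated 5xFAD samples, at 12.65 ± 1.28 (SD, n = 3), overlapped the WT samples, and light-treated samples overlapped neither group. The share of all genes with this pattern was not counted. The log2 fold change against WT was 0.85 ± 0.24 (SE), with an adjusted p of 0.147 by edgeR, and 0.059 by DESeq2. Without WT sample 2, which had the highest WT value, it was 1.06 with an adjusted p of 0.0385 by edgeR, past both thresholds.

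Angpt1, the ligand that activates Tek, was at 4.7, 3.92, 4.44 and 2.5 FPKM in WT and 6.83, 6.22 and 5.28 FPKM with light. The light-treated samples were all higher, with a log2 fold change of 0.66 ± 0.30 (SE) and an adjusted p of 0.299 by edgeR. The receptor Tek was at 5.44, 7.62 and 9.33 FPKM with light, above the WT values of 4.63, 4.14, 4.04 and 3.0 FPKM. Its log2 fold change was 0.93 ± 0.36 (SE), with an adjusted p of 0.232 by edgeR. The log2 ratio of Angpt2 to Angpt1 overlapped between the groups, at 0.82 to 1.72 in WT and 1.2 to 1.76 with light. Vegfc, the lymphatic growth factor gene, was at 5.53, 6.19 and 4.53 FPKM with light against 3.37, 2.24, 2.36 and 2.32 FPKM in WT. All 3 light-treated samples were higher, the log2 fold change was 0.96 ± 0.44 (SE), and the adjusted p was 0.297 by edgeR.

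The other 2 genes without overlap did not reach an unadjusted p below 0.05. Nrp1 was at 49.12, 43.64 and 59.79 FPKM with light and 32.97, 41.77, 41.08 and 38.96 FPKM in WT, a log2 fold change of 0.41 ± 0.28 (SE) with an adjusted p of 0.472. Vegfb was lower in light-treated 5xFAD than in WT, at 19.86, 18.93 and 9.03 FPKM against 21.97, 23.64, 20.4 and 27.2 FPKM. Its log2 fold change was -0.53 ± 0.31 (SE) with an adjusted p of 0.414 by edgeR. Against untreated 5xFAD, whose samples overlapped the light-treated ones for both genes, the log2 fold changes were -0.09 for Nrp1 and -0.48 for Vegfb. The 10 blood endothelial markers summed to 560.3 to 627.2 FPKM in light-treated and 372.4 to 573.8 FPKM in WT meninges, with 8 of 10 positive fold changes, and the 8 fibroblast markers to 1614 to 2175 FPKM against 1172 to 1765. No marker of either list was at 0 in any of these samples, and the part of these cells in the differences was not tested.

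**Figure D3:**
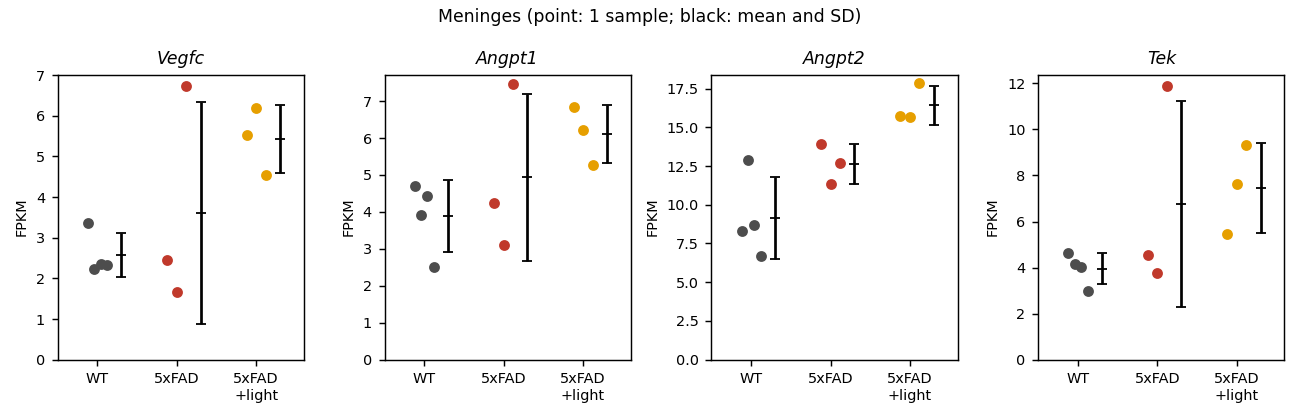
FPKM (y axis) of the 4 genes with an unadjusted p below 0.05 in light-treated 5xFAD against WT meninges, with condition on the x axis, 1 point per sample and the mean and SD of each group in black. Light-treated samples are above all WT samples for the 4 genes, and only for Angpt2 are they also above all untreated 5xFAD samples.

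**Figure D4:**
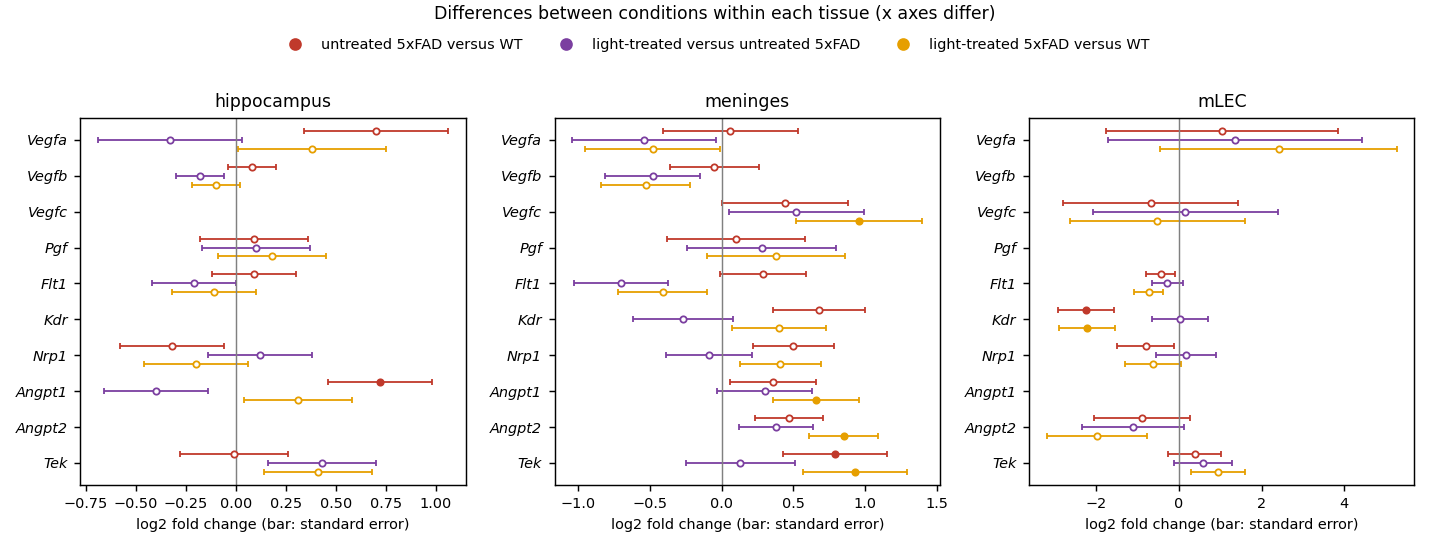
Log2 fold change (x axis, with its standard error as a bar) of each gene for the 3 comparisons of conditions in each tissue. Filled points have an unadjusted p below 0.05, none was called by edgeR, and genes below the filter have no point.

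Whether the meninges responded otherwise than the hippocampus was tested directly as the difference of the fold changes. For untreated 5xFAD against WT, none of the 10 genes was called by edgeR, DESeq2 or limma (1.69% of 15132 genes by edgeR), and 1 had an unadjusted p below 0.05 (12.8% of all genes). This was Nrp1, whose log2 fold change was higher in meninges than in hippocampus by 0.83 ± 0.40 (SE), with an adjusted p of 0.389 by edgeR. The median of all genes was -0.11. Untreated 5xFAD hippocampal sample 3 had the lowest Nrp1 of its tissue, 10.09 FPKM, and untreated 5xFAD meningeal sample 4 the highest of its own, 76.71 FPKM. For light-treated against untreated 5xFAD, none of the 10 was called by the 3 tools (0.971% of all genes by edgeR), and again 1 had an unadjusted p below 0.05 (19.8% of all genes). Kdr had a difference of -0.86 ± 0.41 (SE) between the tissues, with an adjusted p of 0.252 by edgeR. In hippocampus Kdr was at 0.42 to 1.1 FPKM, did not reach the filter there, and entered this fit only through the meninges. Neither difference was refitted with samples left out.

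The mLEC libraries were first checked against the markers of their label. The endothelial genes Pecam1 (189.3 to 397.94 FPKM) and Cdh5 (46.63 to 89.81 FPKM) were detected in all 10 libraries and the leukocyte gene Ptprc was at 0 in all 10. The lymphatic receptor Flt4 was present in all 10, at 3.83 to 81.61 FPKM, but Prox1, the transcription factor that defines lymphatic endothelium, was at 0 in 3 libraries and at most 5.71 FPKM. Lyve1 was at 0 in 2 and Pdpn, the product used in the sort, at 0 in 4. The lymphatic chemokine gene Ccl21a was between 997.92 and 9355.65 FPKM in 8 libraries, but at 3.54 and 0 FPKM in WT samples 2 and 4. Prox1 did not follow Ccl21a, since WT sample 4 had the highest Prox1 of the 10 libraries, 5.71 FPKM, with Flt4 at 30.3 FPKM. Of 10 genes on the blood endothelial list, 9 were above 0 in every library, but Mfsd2a was at 0 in 5. Cldn5 was at 159.42 to 2047.73 FPKM and Plvap, a protein of fenestrated vessels, at 496.18 to 5181.43 FPKM. Among lymphatic markers, Mmrn1 was at 0.06 to 146.03 FPKM with none at 0, and Reln was at 0 in 6 libraries. Genes on both the lymphatic and the blood endothelial lists were thus detected, in amounts that differed among the libraries.

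In mLECs the receptors led the order. Over the 10 libraries, Tek had a median of 143.8 FPKM (15.82 to 324.5), Nrp1 131.1 (43.1 to 313.03), Flt1 124.5 (101.62 to 216.57) and Kdr 47.48 (18.96 to 231.5). All 4 overlapped, and Flt1 had the narrowest range. Angpt2 had a median of 45.56 FPKM, with a range from 0.44 to 188.72, and Vegfc one of 14.93 FPKM, with a range from 0 to 117.31. The other ligands were listed at 0 in some or all libraries, Angpt1 in all 10, Pgf in 8, Vegfb in 5 and Vegfa in 3. Single libraries did hold them: Pgf was at 25.06 FPKM in untreated 5xFAD sample 1 and 11.43 in WT sample 3, Vegfb at 23.51 FPKM in untreated 5xFAD sample 4, and Vegfa at up to 8.59 FPKM, in light-treated sample 3. A count of 0 allows up to 3 counts, which is between 0.124 and 0.211 CPM (counts scaled to the library total) in these libraries, for counting error only. Levels in the tissues were lower for the receptors, with medians of 4.595 FPKM for Tek and 9.155 FPKM for Flt1 in meninges. Medians were lower there for Angpt2 (12.8 FPKM) and Vegfc (2.905 FPKM) too, though the mLEC ranges of these ligands reached down to 0.44 and 0. The mLECs were normalized in a separate table and the differences were not tested.

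Within mLECs, 7 of the 10 genes could be tested, without Vegfb, Pgf and Angpt1. For untreated 5xFAD against WT, none was called by edgeR or limma and 1 by DESeq2. Over all 8188 genes tested, edgeR called 0.0% and DESeq2 2.26%. By edgeR, 1 of the 7 had an unadjusted p below 0.05, when 3.81% of all genes did. This was Kdr, at 204.41, 231.5, 39.77 and 145.9 FPKM in WT, and at 30.87, 18.96 and 62.59 FPKM in untreated 5xFAD mLECs. The WT samples except sample 3 were above all 5xFAD samples, and the log2 fold change was -2.25 ± 0.68 (SE) with an adjusted p of 1 by edgeR, against an adjusted p of 0.0344 by DESeq2. For light-treated 5xFAD against WT, again none was called by edgeR or limma and Kdr by DESeq2, when edgeR called 0.0122% and DESeq2 5.67% of all genes. By edgeR, 1 of the 7 had an unadjusted p below 0.05 (6.72% of all genes). With light Kdr was at 25.96, 32.16 and 55.18 FPKM, a log2 fold change against WT of -2.21 ± 0.68 (SE) with an adjusted p of 0.74 by edgeR and one of 0.0168 by DESeq2. Both comparisons share the WT libraries, and without WT samples 2 and 4, which nearly lacked Ccl21a, the log2 fold changes of Kdr were -2.0 and -1.97, with adjusted p of 0.999 and 0.825 by edgeR.

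Plvap, the fenestrated-vessel gene, was chosen after its values were seen, as the 1 gene of the 10 blood endothelial markers that DESeq2 called in both comparisons with WT. It was between 2225.97 and 5181.43 FPKM in WT, 875.88 and 1544.6 FPKM in untreated 5xFAD and 496.18 and 1431.35 FPKM in light-treated libraries, with log2 fold changes against WT of -1.77 ± 0.42 (SE) and -2.22 ± 0.43 (SE) and adjusted p of 1 and 0.221 by edgeR. Limma called it for light-treated 5xFAD against WT only. Of the 9 blood endothelial markers tested, 3 had positive log2 fold changes in each comparison, with medians of -0.2 and -0.45. The 10 blood endothelial markers summed to 6024 to 10430, 5328 to 7405 and 4862 to 7892 FPKM in the 3 groups, and the 8 lymphatic ones to 227.3 to 7078, 1447 to 4728 and 3347 to 9930 FPKM. The part of the mixture of endothelial cells in the values of Kdr was not tested.

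Between light-treated and untreated 5xFAD mLECs none of the 7 genes was called by edgeR, DESeq2 or limma (0.0% of all genes by edgeR and 4.36% by DESeq2), and none had an unadjusted p below 0.05. Flt1 was at 101.62, 108.71 and 105.37 FPKM with light, 120.99, 145.47 and 127.93 FPKM without and 134.56, 163.23, 119.16 and 216.57 FPKM in WT. It was the 1 gene of 7 whose light-treated samples did not overlap the untreated 5xFAD group (10.1% of all genes), and likewise for the WT group (5.67%). The share of all genes that overlapped neither group was not counted. Its log2 fold changes were -0.28 ± 0.37 (SE) and -0.72 ± 0.35 (SE), with adjusted p of 1 and 0.752 by edgeR. Tek and Angpt2 varied widely within each group. Tek was at 15.82, 163.8, 74.17 and 132.47 FPKM in WT, 85.59, 155.21 and 172.59 FPKM in untreated 5xFAD and 101.49, 175.62 and 324.5 FPKM in light-treated libraries. Angpt2 was at 188.72, 130.18, 25.11 and 27.78 FPKM, at 82.72, 74.64 and 26.07 FPKM and at 63.35, 20.86 and 0.44 FPKM in the same groups, and Vegfc at 0.02, 0, 55.16 and 117.31 FPKM, at 18.29, 5.77 and 49.9 FPKM and at 11.56, 54.37 and 6.94 FPKM. The groups of these 3 genes overlapped in every comparison.

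**Figure D5:**
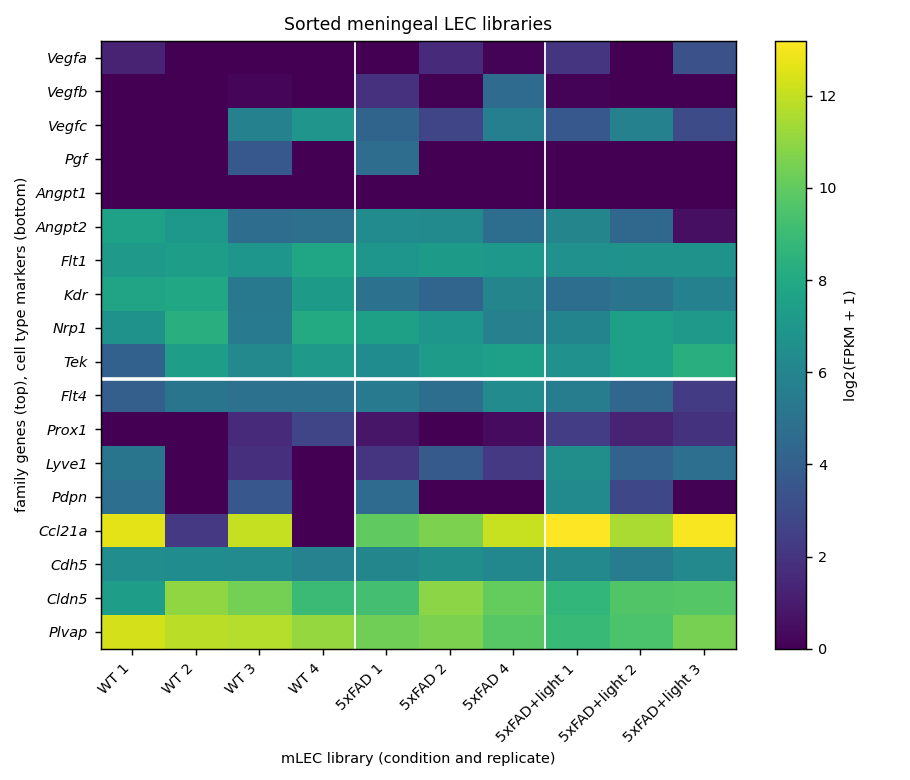
Level of the 10 genes (top rows) and of lymphatic and blood endothelial markers (bottom rows) in each of the 10 mLEC libraries (columns), as log2(FPKM + 1) by color. Kdr is highest in 3 of the 4 WT libraries and Plvap in all 4, Ccl21a is nearly absent from WT samples 2 and 4, and Angpt1 is at 0 in every library.

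Other genes of the pathways were taken from 3 lists. In WT meninges against WT hippocampus, 50.0% of all 14144 genes were called and 28.3% called higher. Of 6 partner ligands and receptors, 4 were called higher in WT meninges than in WT hippocampus: Angpt4, at 0 to 0.07 FPKM in hippocampus and 2.8 to 5.32 FPKM in meninges, Flt4, the receptor of VEGF-C, with a log2 fold change of 3.48 ± 0.34 (SE), Ptprb, a phosphatase that restrains Tek (2.96 ± 0.31), and Tie1, the co-receptor of Tek (2.72 ± 0.30). Vegfd and Nrp2 had log2 fold changes of 0.07 and 0.03. Of 8 endothelial response genes 6 were tested, with 3 called higher and 3 lower. Esm1, made by endothelial tip cells, was higher by 7.77 ± 0.40 (SE) on the log2 scale. The size of this difference rests on values near 0, since WT hippocampus had 0.02 to 0.13 FPKM on 1 to 5 expected counts. Nos3 and Rcan1 were higher by 2.72 and 1.83. Apln, Egr3 and Hey1, which neurons and other brain cells also express, had log2 fold changes of -4.33, -3.02 and -1.10. Apln was at 0.05 to 0.86 FPKM in WT meninges. Of 12 hypoxia response genes 11 were tested, with 3 called in each direction.

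Between conditions, edgeR called none of these genes in the 192 tests of the 3 lists over the 9 comparisons within tissues, and limma called none. Of these tests 24 had an unadjusted p below 0.05, when the share over all genes ran from 3.81% to 24.0% in the 9 comparisons. DESeq2 called 2 hypoxia response genes in hippocampus, Egln3 for untreated 5xFAD against WT (log2 fold change 1.58 ± 0.48 (SE), adjusted p 0.0598 by edgeR) and Adm for light-treated against untreated 5xFAD. In light-treated 5xFAD against WT meninges, 2 of 7 endothelial response genes tested were higher and 1 lower at an unadjusted p below 0.05, when 16.4% of all genes passed in either direction, namely Esm1 (0.82 ± 0.27, SE), Aplnr (1.27 ± 0.52) and Egr3 (-1.31 ± 0.53), with adjusted p of 0.18, 0.256 and 0.254. Of 11 hypoxia response genes 2 were higher at that p, Pdk1 (0.98 ± 0.24, adjusted p = 0.134 by edgeR) and Bnip3 (0.80 ± 0.26, adjusted p = 0.174). None of the 6 partner genes had an unadjusted p below 0.05 there, and their log2 fold changes were all positive, with a median of 0.32. In light-treated against untreated 5xFAD hippocampus, 4 of 11 hypoxia response genes were lower and 1 higher at an unadjusted p below 0.05 (18.3% of all genes in either direction), with Slc2a1, the glucose transporter of brain endothelium, at -0.44 ± 0.11 (SE, adjusted p = 0.0885 by edgeR), Adm at -1.19 ± 0.34 (adjusted p = 0.115) and Vldlr at 0.35 ± 0.11 (adjusted p = 0.145). The choroid plexus markers summed to 208.4 to 3220 FPKM in untreated and 64.53 to 246 FPKM in light-treated hippocampus. The meningeal fibroblast markers summed to 32.22 to 122.7 and 24.27 to 36.02 FPKM in the same groups, with 5 of 7 tested lower at an unadjusted p below 0.05, a median log2 fold change of -1.34 and 4 called by DESeq2, which also called Tagln, a smooth muscle gene. The part of these cells in the hypoxia response genes was not tested. In meninges the same comparison had 3 of 11 hypoxia response genes higher and 0 lower at that p, where 12.7% of all genes passed in either direction.

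The genes whose pattern was most like that of a member were found by Pearson correlation of log2(FPKM + 1) over the 10 meningeal samples after subtracting the mean of each group, among the 14318 tested genes. The nearest was Ahsa2 for Angpt2 (r = 0.97), Gdf5 for Tek (0.97), Ror1 for Angpt1 (0.98), Entpd3 for Vegfc (0.98) and Xpr1 for Kdr (0.97). These are descriptions, each the highest of many correlations over the same 10 libraries.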

How the data were processed

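RNA was sequenced from hippocampus, meninges and sorted mLECs as Smart-seq2 libraries, which do not keep strand. The light had a wavelength of 808 nm. The authors filtered reads with fastp and quantified genes with RSEM, and the submitters' processing notes also name Trimmomatic, HISAT2, StringTie and DESeq2, with the mm10 build. For every gene the authors deposited an unnormalized expected count. A second deposited value, FPKM, was scaled by transcript length and library size. The 22 tissue samples and the 10 mLEC samples are in separate tables, so levels were not tested between them.

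After rounding, the counts were fitted with edgeR 4.0.16 (TMM, quasi-likelihood test) in R 4.3.3, with the 3 groups of a tissue in 1 fit. The SE of an edgeR log2 fold change is approximate. It was derived from the test, as the size of the fold change over the square root of the F statistic. Genes with at least 1 FPKM in at least 3 samples of a fit were tested, and Benjamini-Hochberg adjustment was made over all of them. DESeq2 1.42.0, limma 3.58.1 on log2(FPKM + 1), other scaling, no filter, fewer groups, the replicate number as a block and leaving out each replicate were alternatives. Steps were tested on simulated data. Positions are from GENCODE vM21 (GRCm38) and promoters from RefSeq. Groups came from the sample labels. All 10 members were described, and from other lists the called genes or up to 3 with the lowest p. The members and lists were chosen with earlier results of these data known. Replicates were separate mice, and no 2 libraries agreed within counting error.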

Additional observations from a re-analysis of the deposited data

Results flagged for a closer look

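In groups of 4 samples, the sample farthest from the others was set against the range of its group by Dixon's criterion (0.829), which chance alone passes in about 1 of 20 groups. Of 49 groups with a spread, 5 passed. In WT meninges, Pgf was at 46.17 FPKM in sample 2 and between 15.61 and 20.55 FPKM in the other samples, and Vegfc was at 3.37 FPKM in sample 1 and between 2.24 and 2.36 FPKM in the others. In WT mLECs, Pgf was at 11.43 FPKM and Vegfb at 0.16 FPKM in sample 3 and both at 0 in the others, and Vegfa was at 1.49 FPKM in sample 1 and at most 0.02 FPKM in the others. Their causes were not tested.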

How the results depend on the processing

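Of 155 alternative counts of called genes over the 12 comparisons, 4 differed from the reported count. DESeq2 called 1 gene, Kdr, in mLECs for untreated 5xFAD against WT and 1, again Kdr, for light-treated 5xFAD against WT, where edgeR called 0. In light-treated 5xFAD against WT meninges, leaving out 1 sample at a time gave between 0 and 1 called genes, the 1 being Angpt2 without WT sample 2. The tissue comparison gave 8 calls under every alternative but that with no fold threshold, which gave 9. The 8 fold changes with an unadjusted p below 0.05 kept their direction under all 115 alternatives. They were picked by that p and refitted on the same libraries, so a kept direction was largely set by the choice. Adjusted p ran from 0.0191 to 0.284 for Angpt1 in hippocampus, from 0.0385 to 0.461 for Angpt2 in meninges and from 0.0168 to 1 for Kdr in light-treated mLECs by the tools run. Tek in untreated 5xFAD meninges ranged from 0.08, without untreated 5xFAD sample 4, to 1.08 on the log2 scale. The unadjusted p stayed below 0.05 under all alternatives for Angpt2 (at most 0.0193) and for Kdr in both mLEC comparisons (at most 0.0327 and 0.0421), and under 14 of 15 for hippocampal Angpt1 (0.0771 without untreated 5xFAD sample 1). In light-treated against WT meninges it did so under 6 of 14 for Vegfc (at most 0.132) and 4 of 14 for Angpt1 (0.173), both without light-treated sample 1, and 11 of 14 for Tek (0.126, without light-treated sample 4), and in untreated 5xFAD meninges under 5 of 14 for Tek (0.773, without sample 4). Over 72 pairs of a gene and a comparison, 26 changed sign under at least 1 alternative. The mLEC fit without WT samples 2 and 4 was chosen after seeing the data. With the replicate number as a block, counts of called genes were 0 within tissues and 8 between tissues, as without it. Between conditions, same-numbered samples correlated between -0.24 and 0.09 in hippocampus, -0.32 and 0.26 in meninges and -0.04 and 0.01 in mLECs. The numbers were therefore not taken as pairs across conditions. Whether same-numbered hippocampal and meningeal samples came from the same mouse was not checked. Differences of fold changes between the tissues were not fitted with a block. With 3 or 4 mice per group and a coefficient of variation of 1.89, the spread limits what could be called in mLECs. Vegfc, Kdr and Angpt2 in hippocampus were below the filter, and were fitted only without it or together with the meninges.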
